A study of Mus musculus with 20 samples.

Results

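The genes described here are 49 genes of mitosis: cyclins and their kinase, other mitotic kinases, ubiquitin ligases and sister separation proteins, condensin, spindle and cytokinesis proteins, and the transcription factors that act on many of them. They were chosen by symbol with earlier results of these data known, though not by a threshold on these measurements. Each of the 49 symbols has its own line among the 16927 genes of the deposited table. The cells were spinal cord neural stem cells from adult mice, kept as neurospheres, floating colonies that form from dividing stem and progenitor cells. KO cells come from a mouse model in which Cre recombinase removes exon 3 of Yap1, and they were infected with an adenovirus that carries Cre under the CMV promoter, a promoter that is not restricted to a cell type. WT cells are the wild-type samples. The labels do not state whether WT cells received a virus or carried that allele. If they did not, effects of virus or allele and of the Yap1 deletion cannot be told apart. Each genotype was collected after 5 days of differentiation or after 7 days of proliferation with EGF, FGF2 and heparin. The 4 groups are KO differentiation, WT differentiation, KO proliferation and WT proliferation, with 2 libraries each (replicate numbers 7 and 8 of the labels). Where a group has a pair of values, library 7 comes before library 8. No label says that the replicates are separate cultures or animals, and p-values then measure only the spread between these libraries.

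Entry into mitosis is driven by CDK1 bound to cyclin B, once CDC25 phosphatases have removed its inhibitory phosphates and while the kinase Greatwall holds back the opposing phosphatase PP2A-B55. Condensin then compacts the chromosomes, the spindle aligns them, and the anaphase-promoting complex (APC/C) marks securin and cyclin B for destruction, which frees separase, ends CDK1 activity and allows cytokinesis. Most of these genes are transcribed late in the cell cycle, through promoters bound by MuvB complexes with B-MYB and FOXM1 in cycling cells and with p130 or p107 and E2F4 (the DREAM complex) in resting cells.

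Counts per library totalled 18075595 to 18940983. Levels are given as CPM, a gene's counts relative to the TMM-scaled total of the library, except where levels of different genes are set side by side, which uses the deposited TPM, a measure corrected for transcript length. Yap1 was lower in the KO libraries, with 22.6 and 27.8 CPM in KO differentiation against 107 and 93.7 CPM in WT differentiation. In KO proliferation it had 27.0 and 32.7 CPM, against 170.5 and 150.4 CPM in WT proliferation. Yap1 RNA thus remained in each KO library, and whether it holds exon 3 was not tested. Of 8 neural stem cell markers all were detected, and they summed to 3254 to 5486 CPM over the 8 libraries. Of 8 astrocyte markers 7 rose with differentiation in both genotypes, and they summed to 10255 and 10859 CPM in KO differentiation and 13565 and 12533 CPM in WT differentiation, against 1630 and 1216 CPM in KO proliferation and 1440 and 1357 CPM in WT proliferation. Microglia markers summed to at most 0.601 CPM, with Ptprc at 0 in each library, and endothelial markers to at most 2.65 CPM.

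The promoters of the set show the sequence words through which such genes are known to be regulated. A promoter window of 250 bases before to 50 bases after the annotated start was at hand for 41 of the 49 genes (RefSeq, build GRCm38.p6). Where a gene had several windows, as 4 of the 41 did, only the first was used. The windows were searched on both strands for the cell cycle genes homology region (CHR, TTTGAA or TTCGAA), to which MuvB binds, and for the CCAAT box (CCAAT), to which NF-Y binds. The 6 promoters below are those with the CHR nearest to the start, and each is shown in the direction of its gene from 150 bases before the start, over 200 bases. Capitals mark the CHR words, with TTTGAA also read in reverse as TTCAAA, and the CCAAT boxes, also read in reverse as ATTGG. Prc1 lies on the plus strand at chr7:80294301-80294500, Fbxo5 on the minus strand at chr10:5805416-5805615, Ccnb2 on the minus strand at chr9:70421505-70421704, Racgap1 on the minus strand at chr15:99651607-99651806, Cdc25b on the plus strand at chr2:131186798-131186997 and Hmmr on the minus strand at chr11:40733388-40733587.
Prc1: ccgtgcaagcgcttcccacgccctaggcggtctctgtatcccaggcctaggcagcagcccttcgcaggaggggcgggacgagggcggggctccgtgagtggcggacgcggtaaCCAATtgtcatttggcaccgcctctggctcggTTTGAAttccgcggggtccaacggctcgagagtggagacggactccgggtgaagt
Fbxo5: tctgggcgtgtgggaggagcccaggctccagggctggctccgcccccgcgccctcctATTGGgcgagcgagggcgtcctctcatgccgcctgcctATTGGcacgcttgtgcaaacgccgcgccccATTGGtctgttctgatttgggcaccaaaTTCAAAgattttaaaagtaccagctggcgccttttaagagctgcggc
Ccnb2: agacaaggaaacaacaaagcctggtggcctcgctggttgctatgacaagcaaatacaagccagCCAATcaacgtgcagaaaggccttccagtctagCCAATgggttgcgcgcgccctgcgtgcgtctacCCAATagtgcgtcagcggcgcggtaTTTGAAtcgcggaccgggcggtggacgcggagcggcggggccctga
Racgap1: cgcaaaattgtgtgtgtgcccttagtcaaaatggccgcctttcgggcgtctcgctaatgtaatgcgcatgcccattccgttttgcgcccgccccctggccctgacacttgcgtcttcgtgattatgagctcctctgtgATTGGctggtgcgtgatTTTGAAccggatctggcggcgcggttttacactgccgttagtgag
Cdc25b: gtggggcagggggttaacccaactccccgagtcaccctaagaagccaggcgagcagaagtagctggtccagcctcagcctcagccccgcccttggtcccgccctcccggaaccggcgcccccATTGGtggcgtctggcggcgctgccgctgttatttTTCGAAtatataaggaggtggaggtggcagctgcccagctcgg
Hmmr: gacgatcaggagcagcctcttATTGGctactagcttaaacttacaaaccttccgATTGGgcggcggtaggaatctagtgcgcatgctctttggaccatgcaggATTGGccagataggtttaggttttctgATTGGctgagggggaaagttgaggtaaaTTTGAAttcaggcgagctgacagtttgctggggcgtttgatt

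In each of the 6 promoters a CCAAT box stood upstream of the CHR. In Prc1 the CHR begins 5 bases before the start and the CCAAT box 37 bases before it. Fbxo5 and Ccnb2 each carry 3 CCAAT boxes in the stretch shown, and the last begins 25 bases before the start in Fbxo5 and 21 bases before it in Ccnb2. Over the whole window, 28 of the 41 promoters held a CHR (68.3%), against 19.4% of all 27025 promoter windows. From 100 bases before the start onwards, 25 held one (61%), against 8.68% of all windows. A CCAAT box was present in 29 (70.7%), against 37.9% of all windows. Of the 28 promoters with a CHR, 24 also held a CCAAT box, whatever the order of the words. An E2F word, meaning the word TTCCCGC, the word TTGGCGC, the word TTCGCGC or the word TTGCCGC, was present in 11 (26.8%), against 9.69% of all windows. GGAATG, a word that TEAD factors, the DNA-binding partners of YAP1, are known to bind, was present in 6 (14.6%), the same share as in all windows (14.6%). Those 6 genes are Cit, Ckap5, Nek2, Nusap1, Racgap1 and Ube2c. A match is a description of the letters and not a bound site. The genes without a window were Tpx2, Ccna2, Pbk, Smc4, Depdc1b, Cdc25c, Foxm1 and Bora.

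Differentiation against proliferation asked how far the mitotic genes follow the change of culture condition in each genotype. In KO cells 47 of the 49 genes were lower in differentiation and 2, Pttg1 and Ckap5, were higher. In WT cells 47 were lower and 1, Pttg1, was higher (edgeR quasi-likelihood test, Benjamini-Hochberg adjusted p under 0.05). Over all 13046 tested genes, 26.7% were called lower and 25.1% higher in KO cells, and 28.3% lower and 27% higher in WT cells. The median log2 fold change of the 49 genes was -5.97 in KO cells and -5.98 in WT cells, against 0.01 over all tested genes in both. In bulk RNA, fewer dividing cells and less of each transcript per cell cannot be told apart. Markers of several cell types moved with the fall. Besides the astrocyte markers given above, oligodendrocyte precursor markers summed to 1887 and 2514 CPM in KO differentiation and 1898 and 1801 CPM in WT differentiation, against 5208 and 5524 CPM in KO proliferation and 4134 and 4261 CPM in WT proliferation, and of 4 tested markers 3 fell and 1 rose in KO cells and 2 fell and 1 rose in WT cells. Neuron markers summed to 1992 and 2073 CPM in KO differentiation and 1591 and 1779 CPM in WT differentiation, against 1088 and 1277 CPM in KO proliferation and 1090.3 and 1302 CPM in WT proliferation, and of 6 tested 4 rose in KO cells and 3 in WT cells. Oligodendrocyte markers summed to 87.0 to 106 CPM over the differentiation libraries, against 2.65 to 7.69 CPM over the proliferation libraries, and of 2 tested 1 rose in each genotype. Neural stem cell markers summed to 3899 and 3254 CPM in KO differentiation and 4090 and 3603 CPM in WT differentiation. In proliferation they summed to 4618 and 4542 CPM in KO cells and 5482 and 5486 CPM in WT cells. Of the 8 tested 3 rose and 2 fell in each genotype. No marker of these lists with a line in the table was at 0 in all 8 libraries. The part of these cell types in the fall was not tested. Each of the 49 genes passed the filter on low counts on the proliferation libraries alone, and 38 also on the differentiation libraries alone. The other 11 (Ccnb1, Ccnb2, Cdc25c, Nek2, Melk, Pbk, Ncapg, Hmmr, Cep55, Depdc1a and Depdc1b) were tested only because of their level in proliferation.

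The depth of the fall differed widely within the set. The mean CPM in differentiation, as a percentage of that in proliferation, had a median over the genes of 1.58% in KO cells and 1.57% in WT cells. In each genotype 21 genes kept under 1% of their proliferation level, 19 kept 1 to 10%, 7 kept 10 to 100% and 2 were above 100%. Of the 49 genes, 47 were in the same class in both genotypes. In differentiation 17 genes averaged under 1 CPM in KO cells and 15 in WT cells, whereas in proliferation none did in either genotype.

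**Figure D1:**
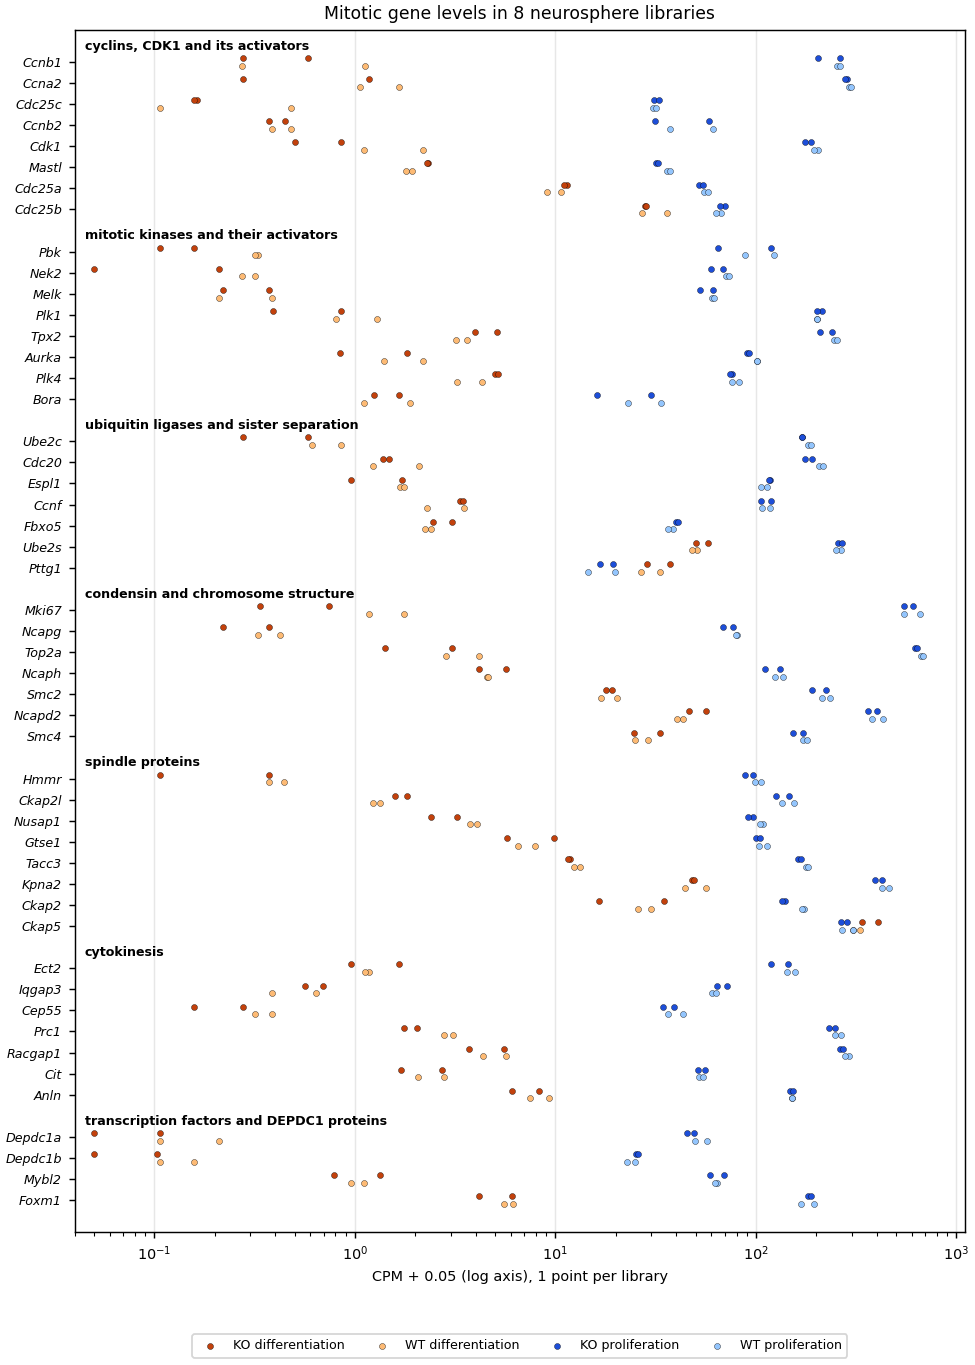
Level of each of the 49 genes in the 8 libraries, grouped by role, as CPM plus 0.05 on a log axis, with 1 point per library (KO differentiation dark orange, WT differentiation light orange, KO proliferation dark blue, WT proliferation light blue). Orange and blue points are apart for each gene except Ckap5, and Pttg1 and Ckap5 are the genes with orange points to the right. KO and WT points lie closer together in proliferation than in differentiation for genes of few counts such as Mki67 and Pbk.

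Cyclins, CDK1 and its activators. Ccnb1, which encodes cyclin B1, the partner of CDK1 at mitotic entry, had 0.228 and 0.535 CPM in KO differentiation and 0.224 and 1.07 CPM in WT differentiation, against 205 and 261 CPM in KO proliferation and 254 and 264 CPM in WT proliferation. Cdk1, the kinase itself, had 0.455 and 0.803 CPM in KO differentiation and 1.07 and 2.15 CPM in WT differentiation, against 175 and 189 CPM in KO proliferation and 205 and 194 CPM in WT proliferation. For both genes each differentiation library was far below each proliferation library. The log2 fold change of Ccnb1 was -9.22 ± 0.53 in KO cells and -8.61 ± 0.50 in WT cells (SE, n = 2 libraries a group; adjusted p = 5.79e-05 and 5.85e-05 in edgeR). Ccnb1 was tested only because of its level in proliferation, so these p-values add no support beyond its values. The log2 fold change of Cdk1 was -8.15 ± 0.35 in KO cells and -6.94 ± 0.32 in WT cells. Ccna2 (cyclin A2) kept 0.24% of its level in KO cells and 0.445% in WT cells, and Ccnb2 (cyclin B2) kept 0.805% and 0.781% in the same order. Ccna2 shares 12.5% of its exon sequence with Exosc9 on the opposite strand.

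The 3 CDC25 phosphatases, which activate cyclin-dependent kinases, parted ways. Cdc25c kept 0.348% of its proliferation level in KO cells and 0.778% in WT cells, and Cdc25a kept 20.9% in KO cells and 17.4% in WT cells. Cdc25c shares 12.7% of its exon sequence with Gm3550 on the opposite strand. Cdc25b had 27.8 and 28.1 CPM in KO differentiation and 36.1 and 27 CPM in WT differentiation, against 70.1 and 66.1 CPM in KO proliferation and 66.7 and 63.4 CPM in WT proliferation. It fell in both genotypes, with a log2 fold change of -1.29 ± 0.15 in KO cells and -1.04 ± 0.15 in WT cells (adjusted p = 0.000715 and 0.00136 in edgeR), the smallest fall among the 49 genes. Its promoter, shown above, holds a CHR 8 bases after the start, counted with the start as base 1. Mastl, which encodes Greatwall, had 2.28 and 2.25 CPM in KO differentiation and 1.74 and 1.88 CPM in WT differentiation, against 31.6 and 32.4 CPM in KO proliferation and 36.1 and 37.1 CPM in WT proliferation, and kept 7.06% in KO cells and 4.94% in WT cells. All 8 genes of this group fell in both genotypes.

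Mitotic kinases and their activators. Plk1 encodes polo-like kinase 1, which acts from mitotic entry to cytokinesis, and had 0.341 and 0.803 CPM in KO differentiation and 1.23 and 0.751 CPM in WT differentiation, against 213 and 202 CPM in KO proliferation and 201 and 202 CPM in WT proliferation. Aurka, the Aurora A kinase of centrosomes and spindle poles, had 0.797 and 1.77 CPM in KO differentiation and 2.13 and 1.34 CPM in WT differentiation, against 89.7 and 92.2 CPM in KO proliferation and 101 and 102 CPM in WT proliferation. Tpx2, the protein that activates Aurora A on the spindle, had 3.93 and 5.09 CPM in KO differentiation and 3.14 and 3.59 CPM in WT differentiation, against 209 and 239 CPM in KO proliferation and 246 and 255 CPM in WT proliferation. None of these genes had overlapping values between conditions. The log2 fold changes of Plk1 were -8.47 ± 0.32 in KO cells and -7.66 ± 0.30 in WT cells. For Aurka they were -6.13 ± 0.34 and -5.86 ± 0.33, and for Tpx2 -5.63 ± 0.17 and -6.21 ± 0.18, in the same order.

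Pbk, a mitotic serine/threonine kinase, and Nek2, a kinase that helps to part the centrosomes, were near the limit of detection in differentiation. Pbk had 0.0569 and 0.107 CPM in KO differentiation and 0.281 and 0.268 CPM in WT differentiation, against 64.6 and 119 CPM in KO proliferation and 88.5 and 123 CPM in WT proliferation. Its KO differentiation libraries hold 3 counts together against 3376 in KO proliferation, a ratio of 0.0901% (95% interval 0.0186 to 0.264%). Nek2 had 3 counts in KO differentiation against 2356 in KO proliferation, a ratio of 0.129% (95% interval 0.0266 to 0.378%). Such intervals cover counting error only. In WT cells Pbk kept 0.259% and Nek2 0.341%. Melk, a kinase of proliferating progenitors, kept 0.433% in KO cells and 0.409% in WT cells. More of the level was kept by Plk4, the kinase that starts centriole duplication, with 6.73% in KO cells and 4.72% in WT cells, and by Bora, the cofactor through which Aurora A activates PLK1, with 6.1% and 5.11%. All 8 genes of this group fell in both genotypes.

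Ubiquitin ligases and sister separation. Cdc20, the APC/C activator of metaphase, had 1.42 and 1.34 CPM in KO differentiation and 1.18 and 2.04 CPM in WT differentiation, against 176 and 191 CPM in KO proliferation and 207 and 216 CPM in WT proliferation. Ube2c, the E2 enzyme that starts ubiquitin chains on APC/C substrates, had 0.228 and 0.535 CPM in KO differentiation and 0.561 and 0.804 CPM in WT differentiation, against 169 and 169 CPM in KO proliferation and 181 and 188 CPM in WT proliferation. Ube2s, the E2 enzyme that extends those chains, had 50.2 and 57.8 CPM in KO differentiation and 50.6 and 47.8 CPM in WT differentiation, against 257 and 269 CPM in KO proliferation and 265 and 251 CPM in WT proliferation. The enzymes for the start and the growth of the chain thus differed in how much was left. Ube2c kept 0.225% in KO cells and 0.37% in WT cells, while Ube2s kept 20.5% in KO cells and 19.1% in WT cells. Of the exon sequence of Ube2c, 22.8% overlaps exons of Tnnc2 on the opposite strand. For Ube2s, 3.56% overlaps exons of Rpl28 on the opposite strand. No source says if the count was made by strand, and the part of such overlaps in either level was not tested.

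Pttg1 encodes securin, which inhibits separase until the APC/C destroys it. It had 37.3 and 28.5 CPM in KO differentiation and 33.1 and 26.8 CPM in WT differentiation, against 19.2 and 16.6 CPM in KO proliferation and 19.8 and 14.5 CPM in WT proliferation. Every differentiation library was above every proliferation library. The log2 fold change was 0.87 ± 0.22 in KO cells and 0.80 ± 0.22 in WT cells (adjusted p = 0.0158 and 0.0201 in edgeR). The rise did not pass the test when a single library was left out: in KO cells without KO differentiation library 7 (0.67, adjusted p = 0.0766) or KO proliferation library 8 (0.78, 0.0799), and in WT cells without WT differentiation library 7 (0.64, 0.107) or WT proliferation library 8 (0.60, 0.106). Espl1, which encodes separase, the protease that securin holds back, moved the other way and kept 1.1% in KO cells and 1.52% in WT cells. Fbxo5 (EMI1, an APC/C inhibitor) kept 6.68% in KO cells and 6.08% in WT cells, and Ccnf (cyclin F, a substrate receptor of an SCF ubiquitin ligase) kept 3% in KO cells and 2.52% in WT cells. In this group 6 of 7 genes fell and 1 rose in both genotypes.

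Condensin and chromosome structure. Condensin I is built from the ATPases SMC2 and SMC4, which it shares with condensin II, and from the subunits NCAPH, NCAPG and NCAPD2. Ncapg had 0.171 and 0.321 CPM in KO differentiation and 0.281 and 0.375 CPM in WT differentiation, against 68.2 and 77.1 CPM in KO proliferation and 80.0 and 79.1 CPM in WT proliferation. Ncaph, the kleisin that bridges both ATPases, had 4.1 and 5.62 CPM in KO differentiation and 4.49 and 4.56 CPM in WT differentiation, against 111 and 132 CPM in KO proliferation and 124 and 137 CPM in WT proliferation. The third non-ATPase subunit gene, Ncapd2, had 56.1 and 46.1 CPM in KO differentiation and 40.4 and 43.1 CPM in WT differentiation, against 363 and 400.0 CPM in KO proliferation and 379 and 430.1 CPM in WT proliferation. The subunits of a single complex fell unequally. Ncapg kept 0.339% of its level in KO cells and 0.412% in WT cells, Ncaph kept 4% and 3.47%, and Ncapd2 kept 13.4% and 10.3%, in the same order. Ncapg shares 13.4% of its exon sequence with Lcorl on the opposite strand. Ncapd2 shares 3.78% with Scarna10 and 3.75% with Gm28967, both on the same strand.

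Smc2 had 17.9 and 19 CPM in KO differentiation and 16.8 and 20.2 CPM in WT differentiation, against 191 and 222 CPM in KO proliferation and 212 and 234 CPM in WT proliferation. Smc4 had 33.1 and 24.7 CPM in KO differentiation and 29 and 25 CPM in WT differentiation, against 153 and 172 CPM in KO proliferation and 171 and 179 CPM in WT proliferation. The ATPase genes kept more than Ncapg and Ncaph did, with 8.93% for Smc2 and 17.8% for Smc4 in KO cells, and 8.29% for Smc2 and 15.4% for Smc4 in WT cells. On the TPM scale, which allows genes to be set side by side, Ncapg stood at 0.12 and 0.21 TPM in KO differentiation and 0.2 and 0.23 TPM in WT differentiation, while Ncapd2 stood at 26 and 23.4 TPM in KO differentiation and 19.5 and 21.7 TPM in WT differentiation. In proliferation the same genes had 43 and 51.7 TPM (Ncapg, KO), 49.5 and 52.7 TPM (Ncapg, WT), 166 and 189.9 TPM (Ncapd2, KO) and 166 and 202 TPM (Ncapd2, WT). The 3 subunits of condensin II alone, which works inside the nucleus from prophase on and is not part of the 49, fell as well. Ncapg2 kept 9.25% in KO cells and 8.95% in WT cells, Ncapd3 25.9% and 23.6%, and Ncaph2 56.6% and 50.4%, in the same order.

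**Figure D2:**
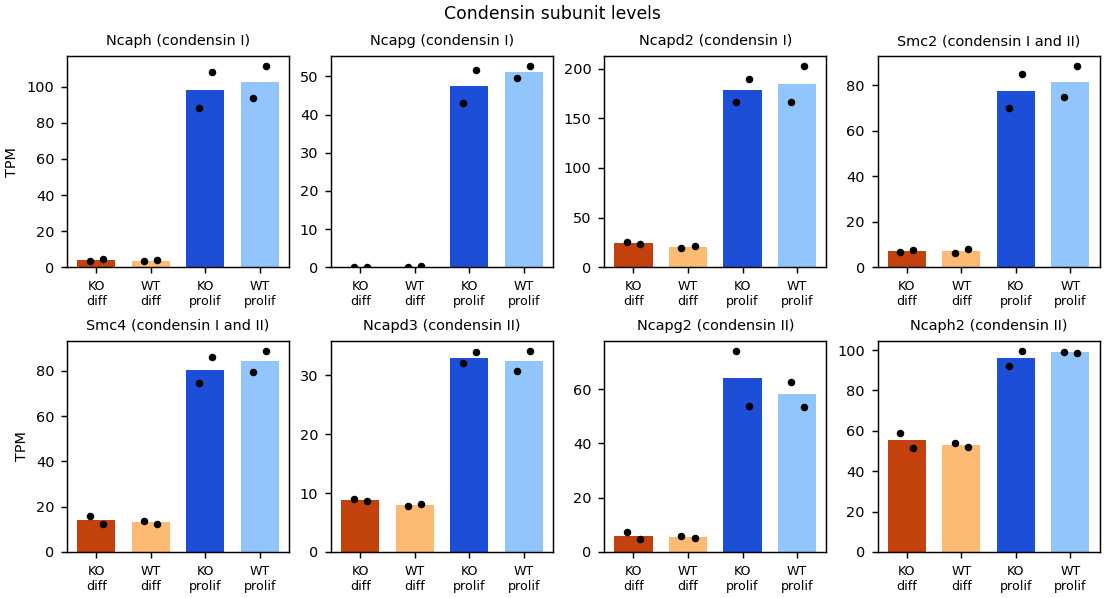
TPM of the condensin subunit genes, with bars for the mean of 2 libraries and dots for the libraries. Each gene is lower in differentiation (orange) than in proliferation (blue). Ncapg is close to 0 in differentiation, and Ncaph2 keeps 56.6% of its CPM in KO cells and 50.4% in WT cells.

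Top2a encodes topoisomerase IIα, which untangles sister chromatids, and had 1.37 and 3 CPM in KO differentiation and 2.81 and 4.13 CPM in WT differentiation, against 624 and 634 CPM in KO proliferation and 662 and 678 CPM in WT proliferation. Mki67, the gene of the proliferation marker Ki-67 that coats mitotic chromosomes, had 0.285 and 0.696 CPM in KO differentiation and 1.12 and 1.72 CPM in WT differentiation, against 606 and 548 CPM in KO proliferation and 546 and 655 CPM in WT proliferation. No differentiation library passed 5 CPM for either gene. The log2 fold change of Top2a was -8.16 ± 0.38 in KO cells and -7.59 ± 0.37 in WT cells, and that of Mki67 was -10.17 ± 0.36 in KO cells and -8.71 ± 0.32 in WT cells. All 7 genes of this group fell in both genotypes.

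Spindle proteins. Ckap5 encodes a microtubule polymerase (chTOG) that works in interphase as well as in mitosis. It had 405 and 337 CPM in KO differentiation and 305 and 329.6 CPM in WT differentiation, against 265 and 285 CPM in KO proliferation and 268 and 304 CPM in WT proliferation. The KO groups did not overlap, and the WT groups almost touched. The log2 fold change was 0.43 ± 0.13 in KO cells (adjusted p = 0.0287 in edgeR) and 0.15 ± 0.13 in WT cells (adjusted p = 0.358). The rise in KO cells did not pass when only the 4 KO libraries were fitted (adjusted p = 0.0710) or without KO differentiation library 7 (0.29, adjusted p = 0.114), KO proliferation library 7 (0.38, 0.138) or KO proliferation library 8 (0.50, 0.0726). The difference between both changes was 0.28 ± 0.18 (adjusted p = 0.981).

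The other 7 spindle genes fell in both genotypes. Tacc3, the partner of chTOG on spindle microtubules, had 11.8 and 11.5 CPM in KO differentiation and 13.2 and 12.3 CPM in WT differentiation, against 161 and 167 CPM in KO proliferation and 178 and 182 CPM in WT proliferation. Nusap1, which bundles microtubules near chromosomes, had 3.19 and 2.36 CPM in KO differentiation and 3.7 and 4.02 CPM in WT differentiation, against 97 and 91.4 CPM in KO proliferation and 109 and 104 CPM in WT proliferation. They did not overlap between conditions. Hmmr, a spindle pole protein, kept 0.205% in KO cells and 0.35% in WT cells, and Ckap2l, a spindle protein of neural progenitors, kept 1.22% and 0.854%. The rest kept more: Gtse1, which stabilises microtubules, kept 7.57% and 6.64%, Kpna2, an importin that binds spindle factors, kept 11.9% and 11.3%, and Ckap2, a microtubule nucleator, kept 18.7% and 16.2%, each in the order KO cells, WT cells. Named pseudogenes exist for Kpna2, Ccnb1 and Ccnb2, and how reads shared with them were counted is not stated.

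Cytokinesis. Prc1, which bundles the antiparallel microtubules of the central spindle, had 1.71 and 1.98 CPM in KO differentiation and 3.03 and 2.74 CPM in WT differentiation, against 247 and 231 CPM in KO proliferation and 264 and 248 CPM in WT proliferation. Anln encodes anillin, a scaffold of the contractile ring, and had 8.25 and 6.05 CPM in KO differentiation and 9.2 and 7.4 CPM in WT differentiation, against 148 and 153 CPM in KO proliferation and 150.4 and 151 CPM in WT proliferation. Both fell to levels that no proliferation library came near. The log2 fold change of Prc1 was -7.01 ± 0.14 in KO cells and -6.47 ± 0.13 in WT cells (adjusted p = 5.22e-06 and 4.76e-06), and that of Anln was -4.40 ± 0.19 and -4.18 ± 0.18 in the same order. Ect2, the exchange factor that activates RhoA at the cleavage plane, kept 0.956% in KO cells and 0.737% in WT cells. Racgap1, a subunit of the centralspindlin complex, kept 1.71% and 1.74%. Cep55, which recruits the abscission machinery to the midbody, kept 0.457% and 0.759%. The citron kinase gene Cit kept 4.05% and 4.49%, and Iqgap3, a scaffold of the actin cortex, kept 0.851% and 0.749%, each in the order KO cells, WT cells. All 7 genes of this group fell in both genotypes.

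Transcription factors and DEPDC1 proteins. Mybl2, which encodes B-MYB, had 0.74 and 1.28 CPM in KO differentiation and 1.07 and 0.912 CPM in WT differentiation, against 69.2 and 59.1 CPM in KO proliferation and 63.7 and 62.1 CPM in WT proliferation. Foxm1 had 4.1 and 6 CPM in KO differentiation and 6.06 and 5.47 CPM in WT differentiation, against 181 and 188 CPM in KO proliferation and 168 and 194 CPM in WT proliferation. B-MYB and FOXM1 are the activators that join MuvB at the promoters of late cell cycle genes. The log2 fold change of Mybl2 was -5.97 ± 0.25 in KO cells and -5.98 ± 0.25 in WT cells, and that of Foxm1 was -5.19 ± 0.20 and -4.97 ± 0.20 in the same order. Depdc1a had 0.0569 and 0 CPM in KO differentiation and 0.0561 and 0.161 CPM in WT differentiation, against 45.3 and 49.3 CPM in KO proliferation and 49.8 and 57.2 CPM in WT proliferation. Its KO differentiation libraries hold 1 count together against 1739 in KO proliferation, a ratio of 0.0583% (95% interval 0.00148 to 0.325%), and in WT cells its log2 fold change of -8.84 ± 0.38 was the largest of the 49. Depdc1b held 1 count in KO differentiation against 937 in KO proliferation, a ratio of 0.108% (95% interval 0.00274 to 0.605%), and 3 counts in WT differentiation against 898 in WT proliferation, a ratio of 0.345% (95% interval 0.0711 to 1.01%). All 4 genes of this group fell in both genotypes.

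Other genes of the same pathway were looked at by list. Of 4 genes of the chromosomal passenger complex, which corrects spindle attachments and directs cytokinesis, all 4 fell in both genotypes. Aurkb, its kinase, averaged 0.187 ± 0.265 CPM in KO differentiation and 0.245 ± 0.109 CPM in WT differentiation, against 115 ± 2.7 CPM in KO proliferation and 113 ± 12 CPM in WT proliferation (SD, n = 2 each). Incenp, its scaffold, had log2 fold changes of -4.39 in KO cells and -4.36 in WT cells. Of 12 DREAM and MuvB genes, 7 fell and 2 rose in KO cells, and 8 fell and 2 rose in WT cells. Over all tested genes 26.7% were lower and 25.1% higher in KO cells, and 28.3% lower and 27% higher in WT cells. Rbl1, which encodes p107, fell by 2.55 on the log2 scale in KO cells and by 2.77 in WT cells, while Lin52, a MuvB subunit, rose by 0.77 in KO cells and 0.98 in WT cells.

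Of 15 genes of the APC/C and its activator CDH1, 9 fell and 2 rose in KO cells, and 8 fell and 2 rose in WT cells. Over all tested genes 26.7% were lower and 25.1% higher in KO cells, and 28.3% lower and 27% higher in WT cells. The median log2 fold change of the 15 genes was -0.40 in KO cells and -0.38 in WT cells. Anapc15 fell most, by 1.16 on the log2 scale in KO cells and by 1.36 in WT cells, and Anapc16 rose by 0.64 in KO cells and 0.58 in WT cells. The median of these ligase genes was thus far nearer to 0 than the values of Cdc20 and Ube2c. Of 8 genes that inhibit CDK1 or belong to PP2A-B55, 2 fell and 1 rose in KO cells, and 2 fell and 2 rose in WT cells, against 26.7% lower and 25.1% higher over all tested genes in KO cells and 28.3% lower and 27% higher in WT cells. With so few genes nothing is read from these counts. Wee1, the kinase that holds CDK1 inactive, averaged 7.03 ± 1.16 CPM in KO differentiation and 5.66 ± 0.866 CPM in WT differentiation, against 80.8 ± 4.6 CPM in KO proliferation and 76.5 ± 2.36 CPM in WT proliferation (SD, n = 2 each). Of 12 contractile ring and abscission genes that many resting cells also use, 5 fell and 2 rose in KO cells, and 4 fell and 2 rose in WT cells, which is to be read against the same shares over all tested genes. Myl12a, a myosin regulatory light chain, fell by 1.91 on the log2 scale in KO cells and by 1.64 in WT cells. In KO against WT, no gene of these lists passed the test in either condition.

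The order of levels within the set also changed. On the TPM scale Ube2s was first in each group, with 133 and 165 TPM in KO differentiation and 138 and 135 TPM in WT differentiation, against 671 and 723 TPM in KO proliferation and 662 and 674 TPM in WT proliferation. In differentiation it was followed by Pttg1 with 142 and 117 TPM in KO cells and 128 and 107 TPM in WT cells, and by Ckap5 with 122 and 111 TPM in KO cells and 95.2 and 107 TPM in WT cells. Pttg1 and Ckap5 overlapped in both genotypes, and Ube2s overlapped with Pttg1 in KO cells but not in WT cells. In proliferation Ube2c came next with 477 and 494 TPM in KO cells and 490.1 and 548 TPM in WT cells, then Kpna2 with 423 and 478 TPM in KO cells and 442 and 515 TPM in WT cells, and these genes overlapped. Cit was last in proliferation, with 13.3 and 12.4 TPM in KO cells and 11.7 and 13.4 TPM in WT cells.

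Summed over the 49 genes, the level was 799 and 705 CPM in KO differentiation and 681 and 704 CPM in WT differentiation, against 7285 and 7694 CPM in KO proliferation and 7733 and 8196 CPM in WT proliferation. The differentiation sum was 10.04% of the proliferation sum in KO cells and 8.70% in WT cells. Ckap5 alone made up 44.8 to 50.7% of the differentiation sums. In proliferation the KO sums were below the WT sums, at 94% of them on average (91.4 to 96.9% with each library left out in turn). KO library 8 came close to WT library 7. On the TPM scale the sums overlapped, with 5479 and 6064 TPM in KO proliferation against 5648 and 6330 TPM in WT proliferation. In differentiation the KO sums in CPM were at 109% of the WT sums, and WT library 8 came close to KO library 8. Without Ckap5 and Pttg1 the sums were 357 and 339.6 CPM in KO differentiation, against 343 and 348 CPM in WT differentiation, and these overlapped.

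KO against WT in differentiation asked whether the mitotic genes differ between KO and WT cells after 5 days of differentiation. None of the 49 genes passed the test (edgeR, smallest adjusted p = 0.909), and none did over all genes (0%). Yap1 itself did not pass in this condition, with a log2 fold change of -1.99 (adjusted p = 0.106 in edgeR). A gene can thus differ this much and still be missed by the test. At an unadjusted p under 0.05 there were 6 of the 49, against 4.77% of all tested genes. DESeq2 called 0 (6 at an unadjusted p under 0.05) and limma-voom called 0 (0 at an unadjusted p under 0.05). Over all genes DESeq2 called 40 and limma-voom 0. The smallest adjusted p among the 49 genes was 0.110 in DESeq2, for Mki67, so the tools differ in how far the genes were from the threshold. The authors' deposited table lists 0 of the 49 genes at a q-value under 0.05. The median log2 fold change was -0.13, against 0.01 over all tested genes, and it was -0.28 without KO library 8 and -0.03 without WT library 8, the ends of its range with each library left out in turn. KO and WT libraries did not overlap for 11 genes that were lower in KO and 8 that were higher, against 15.6% and 15.9% of all tested genes. The 11 include Nek2, Pbk, Hmmr, Cep55 and Depdc1b, which were tested only because of their level in proliferation and hold few counts here. For Hmmr the gap lay between 0.3212 CPM (KO library 8) and 0.3218 CPM (WT library 8). Nothing is read from the count of genes lower in KO.

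The 3 genes with the smallest p were Prc1, Mki67 and Cdk1, and each was lower in both KO libraries. Prc1 had 1.71 and 1.98 CPM in KO differentiation, against 3.03 and 2.74 CPM in WT differentiation, a log2 fold change of -0.64 ± 0.15 (adjusted p = 0.909). Of the exon sequence of Prc1, 11.1% overlaps exons of Rccd1 on the opposite strand, and no source says if the count was made by strand. Mki67 had 0.285 and 0.696 CPM in KO differentiation, against 1.12 and 1.72 CPM in WT differentiation, a log2 fold change of -1.51 ± 0.40 (adjusted p = 0.934). For Cdk1 the values were 0.455 and 0.803 CPM in KO differentiation, against 1.07 and 2.15 CPM in WT differentiation, with a log2 fold change of -1.34 ± 0.40 (adjusted p = 0.934). All of these levels are at or below a few CPM, and with each library left out in turn the log2 fold changes ranged from -0.75 to -0.54 for Prc1, from -2.30 to -1.02 for Mki67 and from -1.81 to -0.75 for Cdk1.

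The other 3 genes with an unadjusted p under 0.05 did not share a direction. Nusap1 had 3.19 and 2.36 CPM in KO differentiation, against 3.7 and 4.02 CPM in WT differentiation. Tpx2 had 3.93 and 5.09 CPM in KO differentiation, against 3.14 and 3.59 CPM in WT differentiation. Plk4 had 4.95 and 5.14 CPM in KO differentiation, against 3.2 and 4.24 CPM in WT differentiation. Nusap1 was thus lower and Tpx2 and Plk4 higher in both KO libraries, without passing the adjusted test. The approximate 95% interval of the log2 fold change lay within -1 and 1 for 28 of the 49 genes. The rarest transcripts give the least precise ratios: with 1 count in KO against 4 in WT, the ratio of Depdc1a was 25.1% (95% interval 0.511 to 254%), and with 3 counts against 10 that of Pbk was 30.2% (95% interval 5.34 to 117%). The astrocyte marker sums given above were lower in both KO differentiation libraries, with none of the 8 markers called. Ependymal markers summed to 21.2 and 30.2 CPM in KO differentiation, against 54.4 and 65.9 CPM in WT differentiation, with none called. Neuron and oligodendrocyte markers were higher in both KO libraries, with none called. The sums of neural stem cell, oligodendrocyte precursor, and pericyte or fibroblast markers overlapped between KO and WT. The part of these cell types in the values was not tested.

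**Figure D3:**
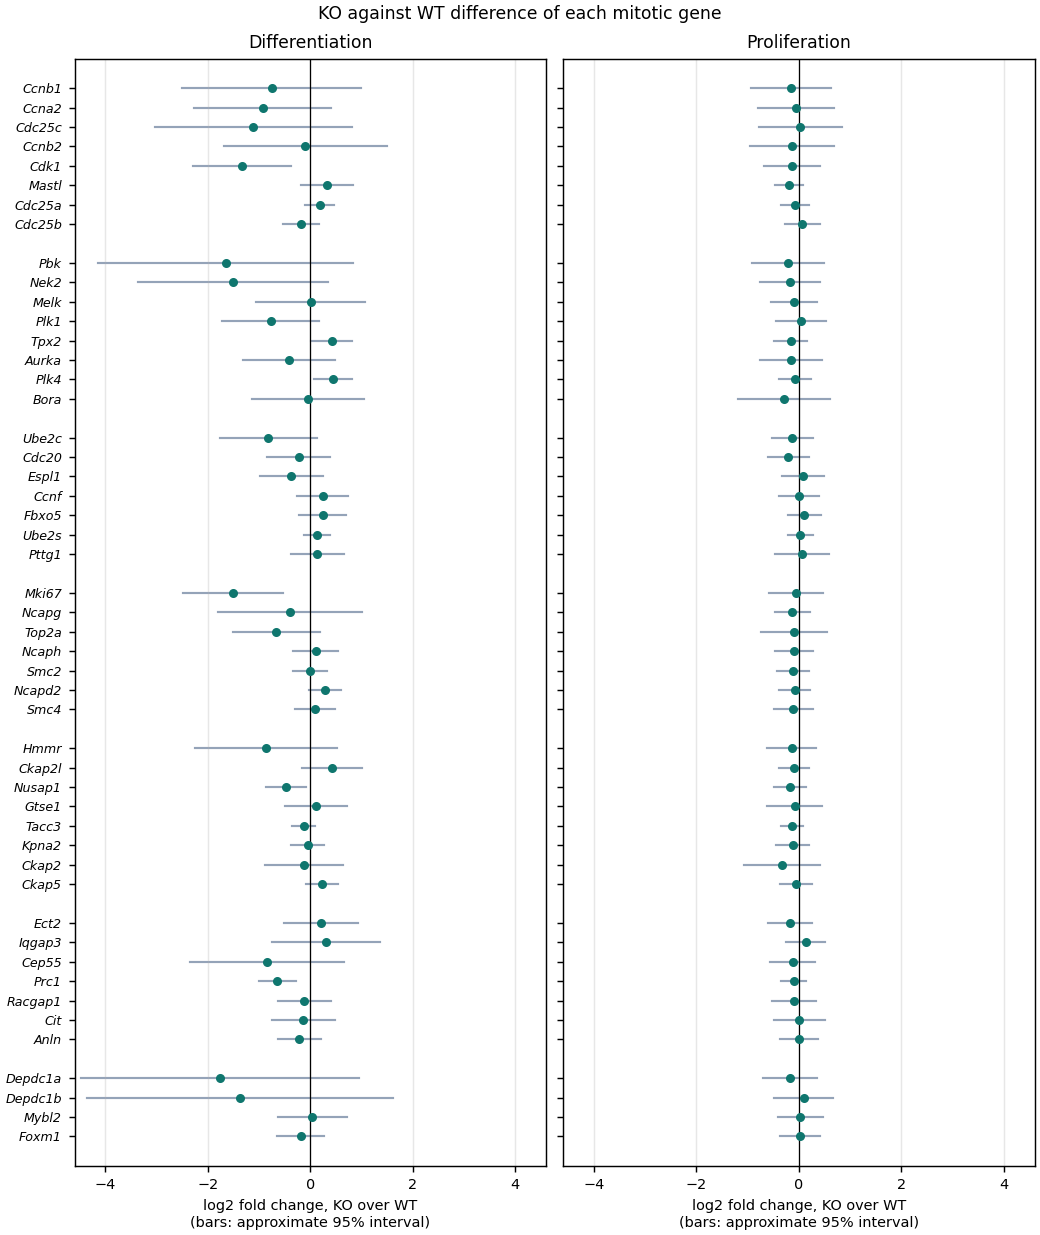
Log2 fold change of KO over WT for the 49 genes, grouped by role as in the plot of levels, in differentiation (left) and proliferation (right), with approximate 95% intervals from the edgeR fit. In proliferation the points lie between -0.33 and 0.13, and in differentiation between -1.51 (Mki67) and 0.44 (Plk4) apart from Pbk and Depdc1a, which hold 3 counts or fewer in KO differentiation. There is no gene past the adjusted threshold in either panel.

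KO against WT in proliferation asked the same after 7 days of proliferation. None of the 49 genes passed (edgeR, smallest adjusted p = 1), against 0.00767% of all tested genes, which is 1 gene, Yap1 itself. At an unadjusted p under 0.05 there were 0 of the 49, against 2.25% of all tested genes, and the smallest unadjusted p was 0.149. DESeq2 and limma-voom also called 0, with 0 at an unadjusted p under 0.05 in both. Over all genes DESeq2 called 12 and limma-voom 2. The authors' deposited table again lists 0 at a q-value under 0.05. The differences were small but mostly on one side. Of the 49 genes 37 had a log2 fold change below 0, against 49.8% of all tested genes, and the median was -0.10, against 0.00 over all tested genes. The 49 genes were measured in the same 2 libraries a group and are not independent of each other. The count is therefore a description with no test. KO and WT libraries did not overlap for 18 genes that were lower in KO and 4 that were higher, against 15.6% and 14.7% of all tested genes.

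The 3 genes with the smallest p were Mastl, Tacc3 and Nusap1. Mastl had 31.6 and 32.4 CPM in KO proliferation, against 36.1 and 37.1 CPM in WT proliferation, a log2 fold change of -0.19 ± 0.12 (95% interval -0.47 to 0.09). Tacc3 had 161 and 167 CPM in KO proliferation, against 178 and 182 CPM in WT proliferation, with -0.13 ± 0.09 (-0.34 to 0.08). Nusap1 had 97 and 91.4 CPM in KO proliferation, against 109 and 104 CPM in WT proliferation, with -0.18 ± 0.13 (-0.49 to 0.13). Each was lower in both KO libraries than in both WT libraries. Fbxo5, Espl1, Iqgap3 and Depdc1b were the genes higher in both KO libraries. For 47 of the 49 genes the approximate 95% interval lay within -1 and 1, and over the set it reached from -1.20 for Bora to 0.84 for Cdc25c. With each library left out in turn the median of the 49 genes ranged from -0.15 (without WT library 7) to -0.04 (without KO library 7). Cell type markers differed beside the set in proliferation, with no marker called. Neural stem cell markers summed to 4618 and 4542 CPM in KO proliferation, against 5482 and 5486 CPM in WT proliferation, oligodendrocyte precursor markers to 5208 and 5524 CPM in KO proliferation, against 4134 and 4261 CPM in WT proliferation, and ependymal markers to 13.4 and 17.7 CPM in KO proliferation, against 27.7 and 44.2 CPM in WT proliferation. KO and WT did not overlap in any of these sums, and their part in the differences was not tested. These lists are named because they did not overlap. The sums of all other lists (astrocyte, neuron, oligodendrocyte, microglia, endothelial, pericyte or fibroblast, and Schwann cell markers) overlapped between KO and WT in proliferation.

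The difference between the KO effects in differentiation and in proliferation was tested directly. None of the 49 genes passed (edgeR, smallest adjusted p = 0.981), and none did over all genes (0%). At an unadjusted p under 0.05 there were 6 of the 49, against 4.28% of all tested genes. DESeq2 called 0 (4 at an unadjusted p under 0.05) and limma-voom called 0 (0 at an unadjusted p under 0.05). Over all genes DESeq2 called 13 and limma-voom 0, and the smallest adjusted p among the 49 genes was 0.187 in DESeq2. The smallest p belonged to Mki67 (difference of log2 fold changes -1.45 ± 0.46), Prc1 (-0.54 ± 0.17) and Tpx2 (0.58 ± 0.22), all with an adjusted p of 0.981. The median difference was -0.02, with 26 genes below 0, and its sign depended on 1 library: it was 0.06 without WT differentiation library 8 and -0.10 without KO differentiation library 8.

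The sequence words were set beside the fall with differentiation. The 28 genes with a CHR in the window had a median log2 fold change of -6.59 in KO cells and -6.67 in WT cells. The 13 genes with a window but no CHR had a median of -4.62 in KO cells and -4.47 in WT cells. Both sets spread widely, from -8.84 to 0.15 with a CHR and from -8.61 to 0.80 without one in WT cells, and they are a description with no test. Ckap5, which did not fall, holds a CHR that begins 45 bases before its start and a CCAAT box that begins 35 bases before it, while Pttg1 holds neither. Cdc25b, with the smallest fall, holds both words. In proliferation, the median log2 fold change of KO over WT was -0.10 both with and without a CHR, and it was -0.11 for the 6 genes with a TEAD word and -0.10 for the other 35. In differentiation it was -0.19 with a CHR and 0.04 without one, and -0.31 with a TEAD word and -0.09 without one, where many of these genes have few counts.

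**Figure D4:**
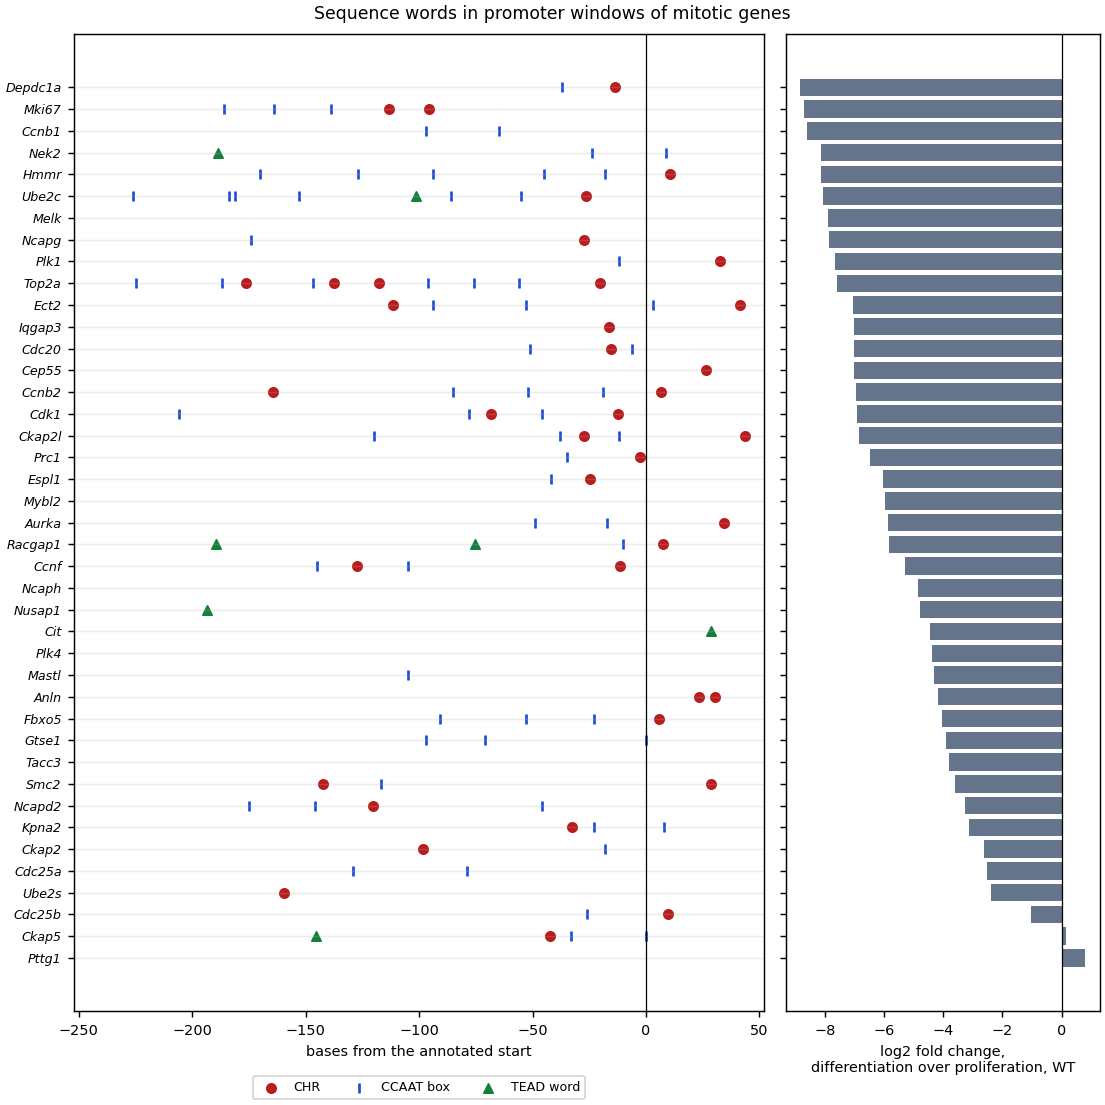
Positions of CHR words (red circles), CCAAT boxes (blue ticks) and TEAD words (green triangles) in the promoter windows of 41 genes, in bases from the annotated start, beside the log2 fold change of differentiation over proliferation in WT cells, with the largest fall at the top. CHR words and CCAAT boxes gather within 100 bases of the start, and some genes at the bottom, such as Cdc25b and Ckap5, carry both.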

How the data were processed

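Stranded poly(A) libraries (dUTP method) were read on a DNBSEQ machine, per the labels. The authors deposited 1 table for the series with estimated counts (expected counts, 6.51% of them not whole numbers) and TPM per gene and library, and with log2 fold changes and q-values of their own comparisons, per the file headers. The labels name 20 samples. Columns of 8 of them were matched by title, the other 12 were not analysed here, and 12 columns of 4 libraries with other names were not used. For the aligner, the counting tool and the use of strand, a name is not given in the sources used here. The submitters' processing notes name GRCm39, while the deposited gene positions are those of GRCm38. Overlaps between exons were read from GENCODE on GRCm38, and 1 line without a gene was left out.

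Estimated counts were rounded to whole numbers and 13046 genes (77.1%) passed the filterByExpr filter of edgeR over the 4 groups. Tests used edgeR 4.0.16 (robust quasi-likelihood fit, TMM, 1 term per group, two-sided) in R 4.3.3, with 4 residual degrees of freedom, a biological coefficient of variation of 24.1%, p-values adjusted by Benjamini-Hochberg over every tested gene and a threshold of 0.05. Standard errors and intervals were derived from the log2 fold change and its p-value on the t scale. The procedure was tested on simulated data. DESeq2 1.42.0 and limma 3.58.1 (voom with quality weights), other scalings and filters, the replicate number as a block, and leaving out each library in turn were the alternatives. With 2 libraries a group, an exact permutation test cannot reach 0.05.

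The genes, their role groups, the pathway and marker lists and the tests were chosen with earlier results of these data known. Values in every library are given for 17 genes named by symbol, for the 4 with the largest and the 4 with the smallest change with differentiation in WT cells, and for the 3 with the smallest p in each comparison of KO with WT and in the difference between the KO effects. Plk4 in KO against WT was named after its values were seen. Pathway lists are given by counts and up to 3 examples.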

Additional observations from a re-analysis of the deposited data

How the results depend on the processing

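The number of the 49 genes called was the same under DESeq2, limma-voom, other scalings and other filters in each of the 5 comparisons. With 1 library left out it ranged from 47 to 49 in differentiation against proliferation in KO cells and from 47 to 48 in WT cells, and was 0 throughout in the 3 comparisons of KO with WT. The median log2 fold change of the 49 genes for the difference between the KO effects, -0.02, changed sign without WT differentiation library 8 (0.06). No value of a named gene that passed the test changed sign. Of the recomputed values of named genes in differentiation against proliferation, 728 kept their call and 8 lost it, all of them for Pttg1 or Ckap5 as given above. All 141 in comparisons of KO with WT kept theirs. From the deposited TPM, the summed level in differentiation was 9.57% of that in proliferation in WT cells. KO stood at 96.4% of WT in proliferation, where the TPM sums of KO and WT overlapped. With each library left out, an alternative added after the data were seen, the first ranged from 8.45 to 8.96% and the second from 91.4 to 96.9%.

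The replicate numbers are shared by the groups, but no label says what a number stands for, and with only 2 numbers they were not taken as pairs. Deviations of libraries with the same number from their group means correlated at 0.784 between KO and WT in proliferation, 0.703 between KO and WT in differentiation and 0.538 to 0.576 across conditions (across genes, which are not independent). With the number as a replicate block, 49 and 48 of the genes were called in differentiation against proliferation in KO and WT cells. In the 3 comparisons of KO with WT 0 were called. These counts were the same without the block, but adjusted p-values were smaller with it. The smallest among the 49 genes with the block was 0.272 for KO against WT in differentiation (0.909 without it, edgeR) and 0.851 in proliferation. For the difference between the KO effects it was 0.517 (0.981 without the block). Over all genes the block fit called 3 in differentiation, 2 in proliferation and 0 for the difference.

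Depth limits the genes with few counts in differentiation, where KO and WT ratios span wide intervals, and 2 libraries a group limit all comparisons.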
